A study of Mus musculus with 30 samples.

Results

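The genes examined were 10 mouse genes of fatty acid synthesis and fatty acid binding: Acly, Acaca, Fasn, Scd1, Scd2, Fads1, Fads2, Elovl5, Fabp5 and Fabp7. They were chosen by name among the protein-coding genes of the expression table, and all 10 were found among its 30952 genes. The libraries came from female C57BL/6 mice, whose age the labels do not give. EAE (experimental autoimmune encephalomyelitis, an induced autoimmune disease of the CNS) was raised by immunization with a myelin oligodendrocyte glycoprotein peptide, given with Freund's adjuvant and pertussis toxin. From a clinical score of around 1, EAE mice were gavaged BID for 3 days with the vehicle (20% Captisol, a cyclodextrin) or with an inhibitor of RIPK1 kinase (RIPK1inh) at 50 mg/kg. Naive mice carried no disease, and the labels name no dosing for them. Microglia (CD11b+ CD45int CX3CR1+) and astrocytes (GLAST+ CD11b- CD45- CD140a-) were sorted from the spinal cord, which gave 4 naive, 6 EAE-vehicle and 5 EAE-RIPK1inh libraries of each cell type. Values are log2 FPKM, a level per exon length, quantile-normalized over the 30 libraries.

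Fatty acid synthesis starts in the cytosol, where Acly (ATP citrate lyase) cleaves citrate to acetyl-CoA, Acaca (acetyl-CoA carboxylase) makes malonyl-CoA from it and Fasn (fatty acid synthase) builds palmitate. Scd1 and Scd2 (stearoyl-CoA desaturases) place the first double bond in saturated chains, Fads1 and Fads2 desaturate polyunsaturated chains, and Elovl5 lengthens them. Fabp5 and Fabp7 carry fatty acids within the cell, and Fabp7, also called brain lipid binding protein, is a gene of radial glia and astrocytes. Astrocytes are a main site of lipid synthesis in the CNS, where they supply sterols and long polyunsaturated fatty acids to neurons and to the cells that make myelin.

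On GRCm38 the 10 genes (ENSMUSG identifiers as deposited) lie on 5 chromosomes. Fasn (ENSMUSG00000025153) spans chr11:120805846-120824547 on the minus strand, Acaca (ENSMUSG00000020532) chr11:84129672-84401651 on the plus strand and Acly (ENSMUSG00000020917) chr11:100476353-100528000 on the minus strand. Scd1 (ENSMUSG00000037071, chr19:44394455-44407879, minus) and Scd2 (ENSMUSG00000025203, chr19:44293674-44306864, plus) are neighbours on chromosome 19. The same chromosome holds Fads1 (ENSMUSG00000010663, chr19:10182888-10196877, plus) and Fads2 (ENSMUSG00000024665, chr19:10062765-10101746, minus), which lie beside each other as well. Elovl5 (ENSMUSG00000032349) spans chr9:77917364-77984519, Fabp5 (ENSMUSG00000027533) chr3:10012548-10016607 and Fabp7 (ENSMUSG00000019874) chr10:57784881-57788450, each on the plus strand. The deposited annotation marks Acaca, Acly, Scd2 and Fads1 as confounded with another gene, as it does 15717 of the 30952 genes. Their values could include reads of an overlapping gene.

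The RefSeq promoter table (GRCm38.p6) held 6 of the 10 genes: Fasn, Acaca, Acly, Elovl5, Fads2 and Fabp7. Scd1, Scd2, Fads1 and Fabp5 have no entry in it. The windows searched were the 250 bases before the RefSeq start of transcription. RefSeq and the deposited annotation do not place every start alike: 243 bases of the Fads2 window and 42 of the Fabp7 window lie within the deposited gene span, as does the whole Acaca window. The bases before the deposited gene are shown for Fasn, which makes palmitate, and for Elovl5 and Fabp7, whose levels in astrocytes the comparisons below turn on. Capitals mark the letters CCAAT, the element that NF-Y is known to bind, on either strand.
Fasn (chr11:120824548-120824797, minus strand): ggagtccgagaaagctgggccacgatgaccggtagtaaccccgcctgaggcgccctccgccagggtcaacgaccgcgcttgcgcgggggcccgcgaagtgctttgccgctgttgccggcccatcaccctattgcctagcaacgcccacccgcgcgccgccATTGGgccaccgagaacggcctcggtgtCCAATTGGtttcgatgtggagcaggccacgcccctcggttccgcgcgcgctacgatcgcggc
Elovl5 (chr9:77917115-77917363, plus strand): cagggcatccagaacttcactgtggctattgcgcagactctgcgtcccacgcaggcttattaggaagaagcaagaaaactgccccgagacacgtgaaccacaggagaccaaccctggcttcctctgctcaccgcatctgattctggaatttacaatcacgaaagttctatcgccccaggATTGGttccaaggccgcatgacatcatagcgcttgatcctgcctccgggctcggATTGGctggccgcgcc
Fabp7 (chr10:57784673-57784880, plus strand): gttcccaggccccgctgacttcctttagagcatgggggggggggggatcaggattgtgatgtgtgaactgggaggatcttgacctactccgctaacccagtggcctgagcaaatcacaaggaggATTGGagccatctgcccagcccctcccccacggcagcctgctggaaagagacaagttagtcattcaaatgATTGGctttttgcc
CCAAT was found in 3 of the 6 promoters (Fasn, Elovl5 and Fabp7), against 33.8% of the 32851 promoters of the table. In Fasn it occurred at 3 places, of which the copies that begin 62 and 59 bases before the start overlap on opposite strands. GGGCGG, the element of Sp1, was found in 2 of the 6, with 4 copies in Acly and 1 in Fads2, against 32.7% of all promoters. The E-box CACGTG was found in Elovl5, 161 bases before the start, against 6.02% of all promoters. The letters TCACNCCAC, the core of the sterol regulatory element, were in 0 of the 6 windows and in 1.05% of all promoters. A match describes the letters of this window and is not a site shown to be bound.

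Marker genes were checked before the values were compared. The 8 astrocyte markers (Aldh1l1, Aldoc, Aqp4, Gfap, Gja1, Slc1a2, Slc1a3 and Sox9) had signal in every astrocyte library, with a mean log2 level of 7.85 to 9.39 per library against 0.99 to 2.12 in the microglia libraries. The 10 microglial markers averaged 7.96 to 10.79 in microglia and 0.79 to 3.48 in astrocytes. The astrocyte libraries also held transcripts of other cells. Their 7 oligodendrocyte markers averaged 6.19 to 7.39 in naive, 6.38 to 9.91 in EAE-vehicle and 7.81 to 9.19 in EAE-RIPK1inh libraries, with Mbp at a group mean of 12.67, 13.71 and 13.59. The 9 T cell markers averaged 0.61 to 1.29, 1.45 to 6.08 and 1.41 to 5.84 in the same groups. Between 1 and 6 of these 9 T cell markers had signal in each naive astrocyte library, while 2 of them, Cd2 and Lck, had signal in none. The 6 neuronal markers averaged 4.30 to 5.41, 5.26 to 6.07 and 3.89 to 5.34. Between 6728 and 22981 genes had signal per library, and 3 libraries had fewer than 9000: naive microglia 4, naive astrocytes 2 and EAE-vehicle astrocytes 1. Only 2305 genes had signal in all 30 libraries. The shares and medians of all genes given below include genes at or near the floor, so they do not describe genes of like level. In sorted bulk RNA, fewer cells of a type and less RNA per cell cannot be told apart.

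Levels in the cell types were compared first, with all libraries taken as independent although both cell types may come from the same mice. Of the 10 genes, 9 were lower in microglia than in astrocytes of naive mice at a fold over 1.5 and an unadjusted p under 0.05 (limma, the cutoff used throughout), where 9.64% of all genes were called lower. All 9 also had an adjusted p under 0.05, as 5.93% of all genes did in this direction, and their naive groups did not overlap, against 5.71% of all genes that were lower without overlap. Oligodendrocytes, whose markers these astrocyte libraries hold, also make fatty acids and are known to express genes such as Fasn and Scd2, and their part in the astrocyte levels and in this difference was not tested. In naive astrocytes the mean log2 FPKM, a level per length, ran from Scd2 (8.87 ± 0.86, SD, n = 4) through Fads1 (8.25 ± 0.73), Fads2 (8.01 ± 0.90), Fabp7 (7.77 ± 0.44), Fabp5 (7.74 ± 0.77), Elovl5 (7.62 ± 0.62) and Scd1 (7.38 ± 0.45) down to Acly (5.64 ± 0.84), Fasn (5.11 ± 1.87) and Acaca (2.86 ± 1.34). Neighbours in this order lay within 1 SD of each other, except for the steps from Scd1 to Acly and from Fasn to Acaca.

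In naive microglia the order was another one. Acly led with a mean log2 level of 5.22 ± 0.53 (n = 4), followed by Elovl5 (4.60 ± 0.33), Fads1 (4.13 ± 1.04), Scd2 (2.64 ± 0.51) and Fabp5 (2.31 ± 1.39). Fasn (0.92 ± 0.82), Fabp7 (0.48 ± 0.61), Fads2 (0.44 ± 0.52), Acaca (0.31 ± 0.21) and Scd1 (0.18 ± 0.33) were near the floor of the table. Acly was the gene that did not pass the test, with a difference of -0.42 (SE 0.49) between naive microglia and naive astrocytes (adjusted p = 0.822, limma) and a 95% interval of -1.42 to 0.58.

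Scd1, Fads2 and Fabp7 were low in microglia and high in astrocytes. Scd1 had signal in 1 of 4 naive, 3 of 6 EAE-vehicle and 3 of 5 EAE-RIPK1inh microglia libraries, with a highest log2 value of 1.36, and its lowest value in any astrocyte library was 6.26. Fads2 reached at most 1.48 in microglia and at least 5.47 in astrocytes. Fabp7 reached 3.21 in EAE-vehicle microglia library 6 and no more than 1.85 in the other microglia libraries, while no astrocyte library was under 7.12. The differences of these genes in naive mice were -7.20 (SE 0.41) for Scd1, -7.57 (SE 0.49) for Fads2 and -7.30 (SE 0.55) for Fabp7 on the log2 scale (exact permutation p = 0.0286 each, the smallest that 4 against 4 libraries can give). They depend on the offset added before the logarithm, which the sources used here do not give. The 8 astrocyte markers, summed, had a log2 level of 5.87 to 6.86 in microglia libraries and 13.20 to 14.73 in astrocyte libraries, and the part of astrocyte RNA in the microglial values of these genes was not tested.

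In EAE-vehicle libraries 9 of the 10 genes were called lower in microglia (10% of all genes were called lower), and 7 of them had an adjusted p under 0.05 (5.91% of all genes). Acaca (difference -1.19, SE 0.54, adjusted p = 0.165) and Fads1 (-1.71, SE 0.80, adjusted p = 0.178) did not. Leaving out 1 library at a time left 7 to 9 genes called. In EAE-RIPK1inh libraries 8 of 10 were called (10% of all genes), without Acly (-0.05, SE 0.44) and Acaca (-1.20, SE 0.59, adjusted p = 0.225, limma).

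**Figure D1:**
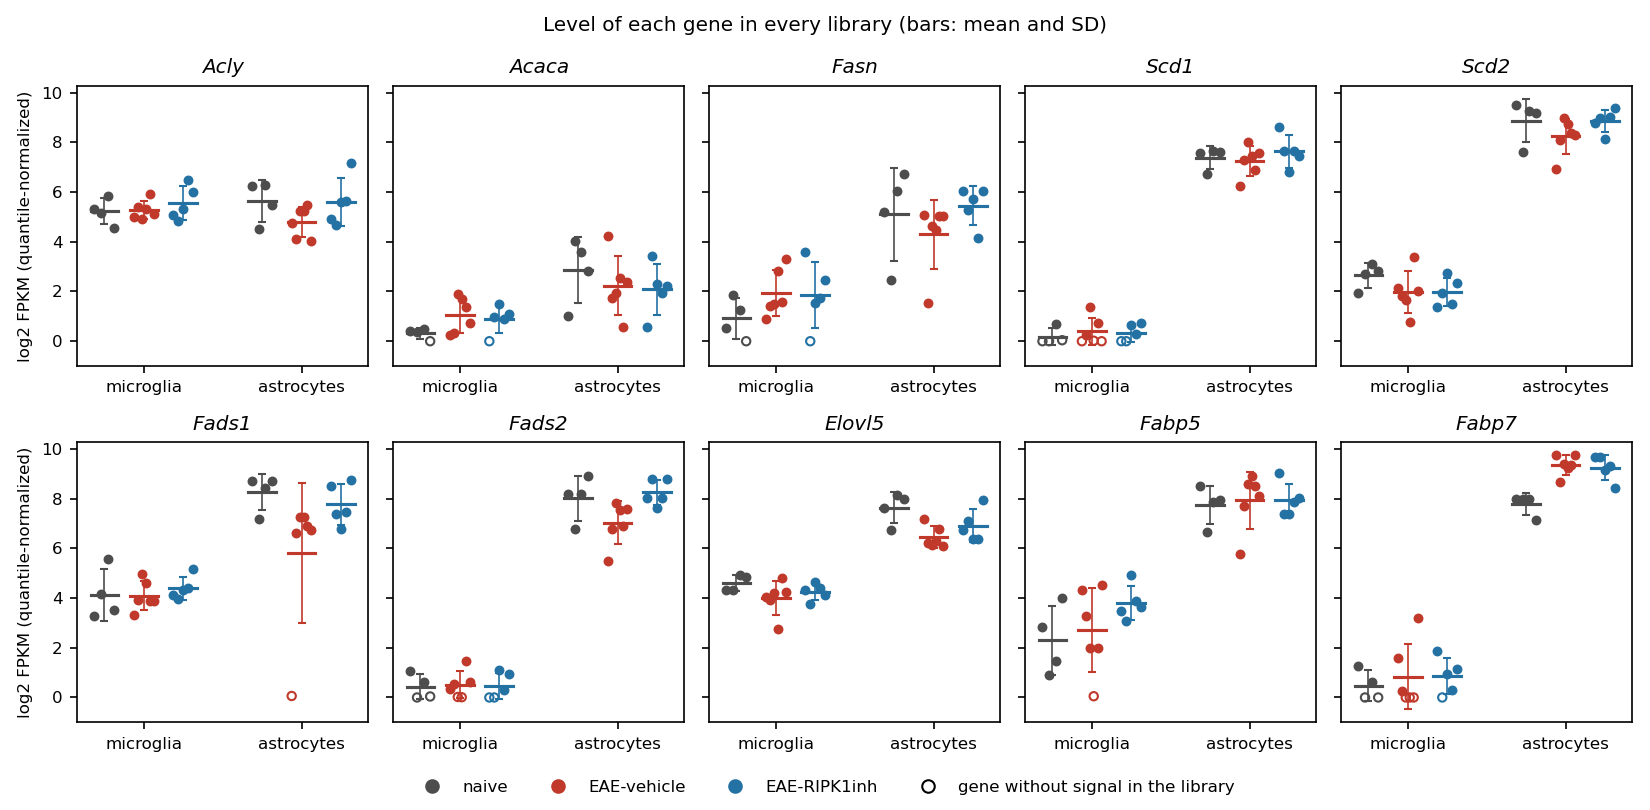
Log2 FPKM of each of the 10 genes in every library, by cell type and treatment group, with the mean and SD of each group as bars and open circles where a gene had no signal in a library. Acly sits between 4.04 and 7.16 in both cell types. Fads2 reaches 1.48 at most in microglia and 5.47 at least in astrocytes, and Fabp7 reaches 3.21 at most and 7.12 at least.

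In EAE-vehicle astrocytes Fabp7 was the gene of the 10 that was higher past the adjustment over all genes. Its 4 naive libraries held 7.98, 8.00, 8.00 and 7.12, and the 6 EAE-vehicle libraries ran from 8.66 to 9.75 with a median of 9.35. No EAE-vehicle library overlapped the naive ones, and the same held for 0.938% of all genes in this direction. The log2 level rose by 1.57 (SE 0.29, 95% interval 0.96 to 2.19, adjusted p = 0.0191, limma), with 6 of 6 libraries above the naive mean and an exact permutation p = 0.00476, the smallest that 6 against 4 libraries can give. With 1 library left out at a time the rise ran from 1.35 to 1.71, and the call held in each of 15 fits.

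Some oligodendrocyte markers were higher in the same libraries. Mobp, a myelin gene, averaged 10.24 (9.77 to 11.04) in naive and 12.58 (11.14 to 13.32) in EAE-vehicle astrocytes. Pdgfra, which marks oligodendrocyte precursor cells and was used to sort them away as CD140a, averaged 0.22 and 1.32, both near the floor. The 4 markers of these precursor cells, Pdgfra among them, averaged 1.40 to 1.75 per library in naive and 0.48 to 1.88 in EAE-vehicle astrocytes. Of the 7 oligodendrocyte markers 4 were called higher and 0 lower (2.69% and 4.01% of all genes), and their mean per library overlapped between the groups. Gfap, the intermediate filament of astrocytes, averaged 10.35 and 12.82. The part of these in the rise of Fabp7 was not tested.

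Fabp5 did not follow Fabp7. Its naive astrocyte libraries held 8.49, 6.66, 7.87 and 7.93, and the EAE-vehicle libraries ran from 5.77 to 8.92 with a median of 8.30. The groups overlapped over most of their range, and the difference was 0.19 (SE 0.55, 95% interval -0.99 to 1.37, adjusted p = 1, limma).

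Among the enzymes, Elovl5 and Fads1 were called lower in EAE-vehicle astrocytes. Together with Fabp7 these made 3 of 10 genes called, where 6.71% of all genes were called in either direction. The 10 genes had a median log2 difference of -0.72, against 0.03 over all genes tested, a set that includes genes at or near the floor. An adjusted p under 0.05 was reached by Fabp7 and by 0.579% of all genes. Of the 8 astrocyte markers, 4 were called lower and 1 higher in the same comparison, with a median of -1.14, and of the 9 T cell markers 6 were called higher. Their part in the lower values of the enzymes was not tested.

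Elovl5, the elongase of polyunsaturated chains, held 7.61, 6.75, 8.15 and 7.97 in naive astrocytes. The EAE-vehicle libraries ran from 6.11 to 7.19 with a median of 6.25. Only EAE-vehicle library 1, at 7.19, and library 5, at 6.77, were above the lowest naive library. The log2 level fell by 1.17 (SE 0.38, p = 0.00782 unadjusted, adjusted p = 0.320, limma), with an exact permutation p = 0.019 and 6 of 6 libraries below the naive mean. The call held in each of 15 fits without 1 library, with falls between -1.46 and -0.99.

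Fads1, the delta-5 desaturase, held 8.71, 7.18, 8.41 and 8.71 in naive astrocytes. In EAE-vehicle astrocytes 5 libraries lay between 6.63 and 7.27, and library 1, the one with 6728 genes with signal, had no signal for it. All but the naive library 2 lay above every EAE-vehicle library. The difference was -2.44 (SE 1.12, p = 0.0461 unadjusted, adjusted p = 0.697, limma; exact permutation p = 0.0857). Without EAE-vehicle library 1 it was -1.29, nearer to 0 and still called. The call was lost in 9 of 15 fits with 1 library left out, with p between 0.0504 and 0.0985. It was also lost without a variance trend and with only the naive and EAE-vehicle libraries in the fit.

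Fads2, the delta-6 desaturase and neighbour of Fads1, was not called for EAE. Its naive astrocyte libraries held 8.20, 6.76, 8.17 and 8.91, and the EAE-vehicle libraries ran from 5.47 to 7.82 with a median of 7.23. The naive library 2 lay among the EAE-vehicle values and the other 3 naive libraries above them. The difference was -0.99 (SE 0.48, 95% interval -2.01 to 0.03, adjusted p = 0.758, limma; exact permutation p = 0.119).

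Fasn, Acly, Scd2 and Acaca had means that were lower in EAE-vehicle than in naive astrocytes without passing the test. Fasn held 5.21, 2.47, 6.03 and 6.74 in naive astrocytes and ran from 1.53 to 5.08 in EAE-vehicle astrocytes, with a median of 4.83. Its difference was -0.81 (SE 0.84, adjusted p = 0.837), and both groups held 1 library far below the others. Acly differed by -0.84 (SE 0.53), Scd2 by -0.64 (SE 0.42) and Acaca by -0.63 (SE 0.77), with adjusted p of 0.835, 0.835 and 0.866 (limma). Scd1 was closest to no difference among the enzymes, at -0.14 (SE 0.38, 95% interval -0.96 to 0.67).

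The count of genes called in this comparison moved with naive astrocyte library 2, which had 8815 genes with signal and the lowest naive value of Fasn, Acly, Scd1, Scd2, Elovl5, Fads1, Fads2 and Fabp5. Without it 7 of the 10 genes were called, Fabp7 higher and 6 lower: Fasn (-1.69), Acly (-1.22), Scd2 (-1.06), Elovl5 (-1.46), Fads1 (-2.80) and Fads2 (-1.40). Without all 3 libraries under 9000 genes, an alternative added after the data were seen, 6 were called: Fabp7 higher and Fasn, Scd2, Elovl5, Fads1 and Fads2 lower. The share of all genes called in these refits is not given here. Neither count can be set against the 6.71% of the full fit.

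**Figure D2:**
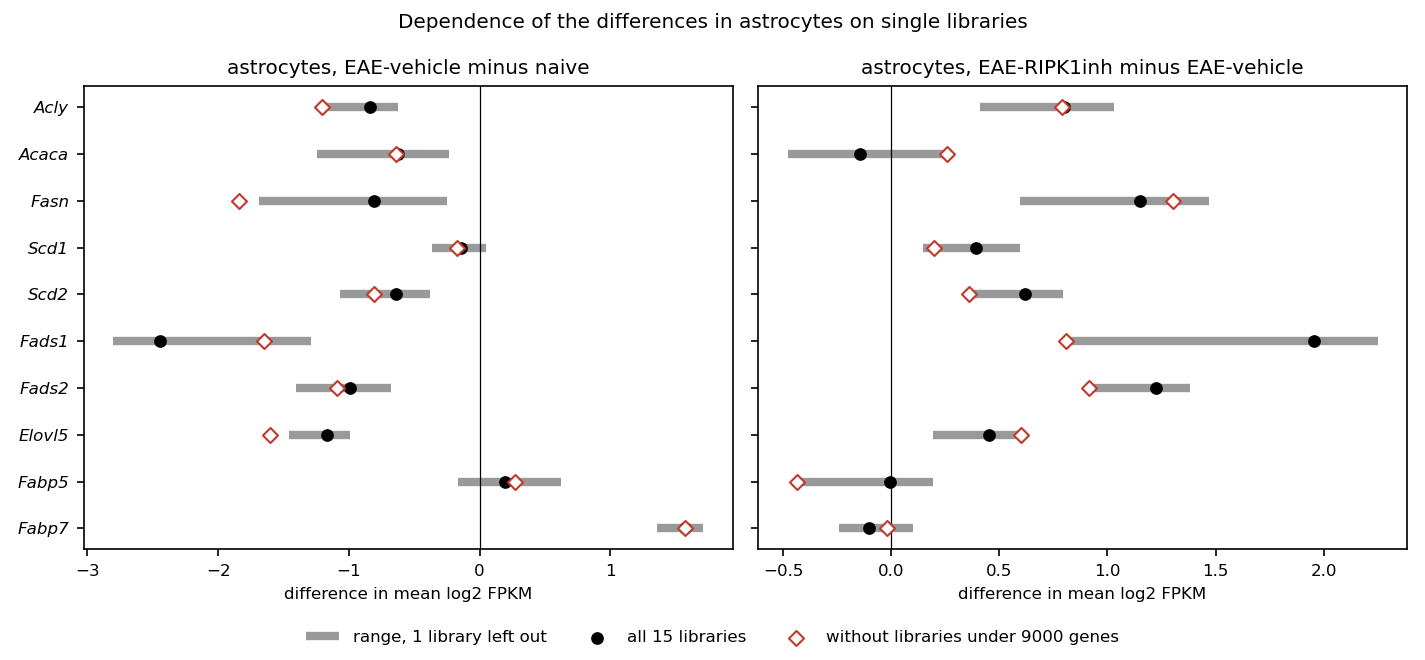
Difference in mean log2 FPKM of each gene in astrocytes, for EAE-vehicle minus naive and for EAE-RIPK1inh minus EAE-vehicle, with all 15 libraries (black), as the range when 1 library is left out (grey) and without the libraries under 9000 genes with signal (diamonds). Fabp7 stays between 1.35 and 1.71 in EAE, while Fasn moves between -1.69 and -0.25.

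In microglia 0 of the 10 genes were called for EAE, where 12% of all genes were called. At an unadjusted p under 0.05 the count was also 0 in limma and in the exact permutation test, with a lowest p of 0.0831 and 0.0857. The median difference of the 10 genes was 0.14, against -0.02 over all genes. Of the 10 microglial markers, 8 were called lower and 1 higher, with a median of -2.08. Elovl5 held 4.31, 4.33, 4.91 and 4.85 in naive and 2.76 to 4.79 with a median of 4.12 in EAE-vehicle microglia (difference -0.61, SE 0.33, 95% interval -1.31 to 0.10, adjusted p = 0.482). Fasn held 0.55, 1.87, 1.26 and no signal in naive and 0.91 to 3.31 with a median of 1.54 in EAE-vehicle microglia (1.01, SE 0.66, adjusted p = 0.546). Both ranges overlapped. Leaving out EAE-vehicle microglia library 5 brought 2 calls, Scd2 (-0.96) and Elovl5 (-0.77), and leaving out library 1 or 2 brought Acaca (0.89 and 0.87).

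Whether EAE moved a gene differently in astrocytes and microglia was tested as an interaction over 30 libraries, again taken as independent. The interaction was called for 0 of 10 genes (8.68% of all genes; 0 genes at an unadjusted p under 0.05). The interval of the difference was widest for Fads1 (-4.99 to 0.18) and ran from -0.24 to 2.66 for Fabp7 and from -1.62 to 0.49 for Elovl5, so the rise of Fabp7 and the fall of Elovl5 were not shown to differ between astrocytes and microglia. Without naive astrocyte library 2 the interaction was called for Fasn (-2.70), Fads1 (-2.76) and Fads2 (-1.48). Over 30 fits without 1 library, Fads1 was called in 4, Acaca in 2 and Fabp7 in 1. The value of Fabp7 ran from 0.95 to 1.69, the highest without EAE-vehicle microglia library 6. The share of all genes called in these refits is not given here.

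The inhibitor against vehicle was the comparison that asks what RIPK1 kinase activity contributes in EAE. It shares the EAE-vehicle libraries with the comparison above, so a low or high value in 1 of them moves both differences in opposite directions. In astrocytes 1 of the 10 genes was called, Fads2, and it was higher (1.84% of all genes were called higher and 3.02% in either direction). The EAE-RIPK1inh libraries held 8.03, 8.78, 7.61, 8.02 and 8.78, against 5.47, 6.79, 7.82, 7.55, 6.90 and 7.59 with vehicle. The groups overlapped by 1 library each: inhibitor library 3, at 7.61, lay below vehicle library 3, at 7.82.

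Fads2 was higher with the inhibitor by 1.22 on the log2 scale (SE 0.45, 95% interval 0.27 to 2.18, p = 0.0156 unadjusted), with 5 of 5 libraries above the vehicle mean and an exact permutation p = 0.013. It did not pass the adjustment over all genes (adjusted p = 0.840, limma), as 0 of 30718 genes did in this comparison, where 3.25% had an unadjusted p under 0.05. The call held in each of 15 fits without 1 library, between 0.91 and 1.38, and at 0.91 without the libraries under 9000 genes. Against naive astrocytes the EAE-RIPK1inh group differed by 0.24 (SE 0.50, adjusted p = 1). The 8 astrocyte markers averaged 8.3 to 9.3 per library with the inhibitor and 7.9 to 8.9 with vehicle. Their part in the difference of Fads2 was not tested.

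The difference in Fads2 between astrocytes and microglia in the effect of the inhibitor was 1.26 (SE 0.59, 95% interval 0.04 to 2.48, adjusted p = 0.948, limma), the 1 call among the 10 genes (3.15% of all genes). It was lost in 11 of 30 fits without 1 library, with values between 0.95 and 1.42. In microglia Fads2 was near the floor with or without the inhibitor (means 0.47 and 0.51).

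The other enzymes of astrocytes did not pass the test with the inhibitor. Fads1 held 8.49, 7.37, 6.79, 7.45 and 8.73, and its difference of 1.96 (SE 1.05, adjusted p = 0.840) moved to 0.81, again not called, without the vehicle library that had no signal. Fasn held 6.04, 5.28, 5.73, 4.17 and 6.05, a difference of 1.15 (SE 0.79, adjusted p = 0.840), and 0.59 without EAE-vehicle library 2. The differences of Acly (0.80, SE 0.50), Scd2 (0.62, SE 0.39), Elovl5 (0.45, SE 0.36) and Scd1 (0.39, SE 0.36) had intervals that included 0, and Acaca stood at -0.14 (SE 0.72). The median of the 10 genes was 0.54, against -0.03 over all genes. The part of the astrocyte markers in these differences was not tested.

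The binding proteins showed no difference with the inhibitor that passed the test. Fabp7 held 9.68, 9.66, 9.16, 9.29 and 8.44 in EAE-RIPK1inh astrocytes, a difference of -0.10 from vehicle (SE 0.27, 95% interval -0.68 to 0.47). These 5 libraries lay above all 4 naive libraries, and Fabp7 was the 1 gene of the 10 called against naive (1.47, SE 0.30, adjusted p = 0.0946, exact permutation p = 0.0159). In that comparison 4.63% of all genes were called and 0.82% were higher without overlap. The difference of Fabp5 in astrocytes was -0.005 (SE 0.52, 95% interval -1.11 to 1.10).

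In microglia 0 of the 10 genes were called for the inhibitor against vehicle (1.76% of all genes; 0 at an unadjusted p under 0.05 in limma, 0 in the exact permutation test). Fabp5 had the highest difference. It held 3.47, 3.07, 4.93, 3.89 and 3.63 with the inhibitor and 4.32, 3.29, 2.00, no signal, 1.99 and 4.51 with vehicle. The inhibitor libraries were all above the vehicle mean, but within the vehicle range except for library 3, and the difference was 1.11 (SE 0.77, 95% interval -0.54 to 2.75, adjusted p = 0.930). Against naive microglia (2.84, 0.92, 1.47 and 4.00) it was 1.49 (SE 0.85, adjusted p = 0.508), where 0 of 10 genes were called (10.1% of all genes). Without naive microglia library 4 this difference was 2.05, which was called.

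**Figure D3:**
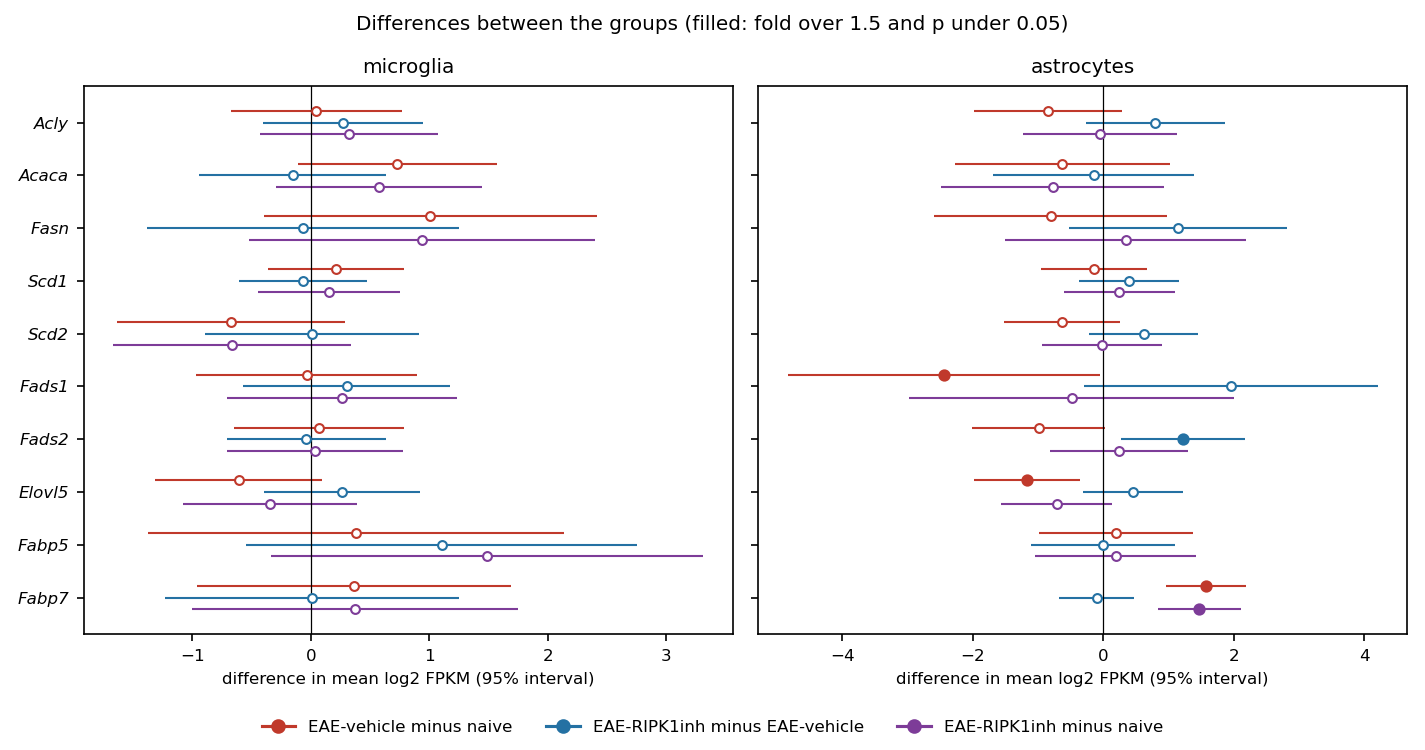
Differences in mean log2 FPKM with 95% intervals from limma for the 10 genes in microglia (left) and astrocytes (right), for the 3 comparisons between groups; filled points passed a fold over 1.5 and an unadjusted p under 0.05. The filled points are all in astrocytes: Fabp7 at 1.57 and 1.47, Elovl5 at -1.17, Fads1 at -2.44 and Fads2 at 1.22.

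Genes of neighbouring steps were examined as lists. Of 12 genes of the elongation cycle, which lengthens chains in the endoplasmic reticulum, 5 were called lower and 0 higher in EAE-vehicle astrocytes (4.01% of all genes were called lower), with a median of -1.41. Hacd2, a dehydratase of this cycle, fell from 8.40 ± 0.29 (SD, n = 4) to 5.58 ± 0.80 (n = 6), by 2.82 on the log2 scale (SE 0.54, adjusted p = 0.0270, limma). In microglia it rose, from 5.99 ± 0.62 to 7.14 ± 0.23 (1.15, SE 0.28, adjusted p = 0.0308). The effect of EAE on Hacd2 differed between astrocytes and microglia by -3.97 (SE 0.62, adjusted p = 0.000739, limma interaction). Hacd3 had differences of -2.65 in astrocytes and -1.38 in microglia, with adjusted p of 0.0846 and 0.115. With the inhibitor Tecr, the last reductase of the cycle, differed by 1.01 in astrocytes (SE 0.33, adjusted p = 0.840, exact permutation p = 0.00433), and its groups did not overlap, which held for 0.107% of all genes in this direction. Per library, the 8 astrocyte markers averaged 8.8 to 9.4 in naive, 7.9 to 8.9 in EAE-vehicle and 8.3 to 9.3 in EAE-RIPK1inh astrocytes. Their part in the differences of the astrocyte libraries was not tested.

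Acyl-CoA synthetases, which activate fatty acids for further use, were mixed. Of 8 in astrocytes, 4 were called lower and 1 higher in EAE, with a median of -1.20 (4.01% of all genes were called lower and 2.69% higher). Acsl3 fell from 8.66 ± 0.28 (n = 4) to 5.85 ± 0.33 (n = 6), by 2.81 (SE 0.47, adjusted p = 0.0103). Acsl6 differed by -1.79 (SE 0.41, adjusted p = 0.0713) and, with the inhibitor, by 1.03 (SE 0.38, adjusted p = 0.840). The part of the astrocyte markers in these differences was not tested. In microglia Acsl1 differed by -1.73 (SE 0.50, adjusted p = 0.0743).

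The 9 other lipid binding genes included Dbi, the acyl-CoA binding protein. In astrocytes Dbi rose from 10.67 ± 0.22 to 11.59 ± 0.26 (0.92, SE 0.16, adjusted p = 0.0113). Of the 9 genes 2 were called higher and 0 lower (2.69% and 4.01% of all genes). In microglia Cd36, a scavenger receptor that takes up long-chain fatty acids, rose from 1.24 ± 1.76 (n = 4) to 7.62 ± 0.20 (n = 6), by 6.38 (SE 0.57, adjusted p = 9.56e-06), while Fabp3 differed by 2.16 (SE 0.67, exact permutation p = 0.0381). The monocyte and neutrophil markers averaged 2.57 to 7.79 in naive and 2.71 to 7.40 in EAE-vehicle microglia, and their part in Cd36 was not tested.

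Genes that act before or on the synthesis enzymes were counted in microglia as well. Of 9 genes that supply citrate, acetyl-CoA and NADPH or act on the carboxylase, 2 were called lower and 0 higher in EAE-vehicle microglia (5.86% of all genes were called lower), with a median of -0.23. Thrsp, a lipogenic factor, fell from 6.01 ± 0.73 to 2.79 ± 1.43 (by 3.22, SE 0.75, adjusted p = 0.0235), and Mid1ip1, its relative that activates acetyl-CoA carboxylase, fell from 6.13 ± 0.45 to 4.12 ± 0.64 (by 2.00, SE 0.39, adjusted p = 0.00725). Of 14 regulators 2 were called lower and 0 higher, with a median of -0.13. Among them Mlxipl, which encodes the transcription factor ChREBP, fell from 6.91 ± 0.54 to 4.58 ± 0.48 (by 2.33, SE 0.43, adjusted p = 0.00514). The 10 microglial markers averaged 10.21 to 10.79 per library in naive and 7.96 to 8.63 in EAE-vehicle microglia. Their part in the falls of Thrsp, Mid1ip1 and Mlxipl was not tested.

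In astrocytes the regulators Srebf1, the master factor of fatty acid synthesis, and Insig1, which holds its precursor in the endoplasmic reticulum, had lower values in EAE. Srebf1 went from 5.92 ± 0.30 (n = 4) to 4.39 ± 0.47 (n = 6), a difference of -1.53 (SE 0.64, adjusted p = 0.587), and Insig1 from 7.11 ± 0.36 to 5.46 ± 0.55 (-1.64, SE 0.57, adjusted p = 0.389). The groups of both genes did not overlap (exact permutation p = 0.00476 each; 1.3% of all genes were lower without overlap). Of the 14 regulators, 0 were called higher and 2 lower (2.69% and 4.01% of all genes), with a median of -0.69. The part of the lower astrocyte markers in these values was not tested.

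The use and storage of fatty acids came last. Of 20 genes of beta-oxidation, 4 were called lower and 0 higher in EAE-vehicle astrocytes (4.01% of all genes lower; median -0.34). In microglia 2 were called lower and 4 higher (5.86% and 6.13% of all genes; median 0.18), where Acadl, an acyl-CoA dehydrogenase, rose from 3.47 ± 0.56 to 4.81 ± 0.49 (1.34, SE 0.32, adjusted p = 0.0267). Of 14 genes of triglycerides and lipid droplets, 4 were called lower in astrocytes and 1 lower and 3 higher in microglia. Mgll, the monoacylglycerol lipase, fell in microglia from 4.31 ± 0.63 to 1.18 ± 0.96 (by 3.13, SE 0.58, adjusted p = 0.00523). The part of the lower microglial markers in this fall was not tested. Of 6 genes of mitochondrial fatty acid synthesis 0 were called in astrocytes (0 at p under 0.05) and 1, Mecr, higher in microglia (1.84, SE 0.59, adjusted p = 0.118). Of 6 other desaturases, Degs1 of ceramide synthesis was called lower in astrocytes (-1.13, SE 0.34, adjusted p = 0.243). For the genes called lower in astrocytes, the part of the lower astrocyte markers was not tested.

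Cholesterol synthesis, which shares acetyl-CoA and the SREBP factors, was counted beside them. Of its 19 genes, 7 were called lower and 0 higher in EAE-vehicle astrocytes (median -1.05), where 4.01% of all genes were called lower. With the inhibitor 4 were called higher and 0 lower (median 1.03), where 1.84% of all genes were called higher, again over the same vehicle libraries. The study reported both changes of this pathway from these same libraries. The list was chosen with that known, so these counts are not independent of it. The part of the astrocyte markers in these differences was not tested. In microglia 1 gene was called lower in EAE (5.86% of all genes) and 1 higher with the inhibitor (1.06% of all genes).

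**Figure D4:**
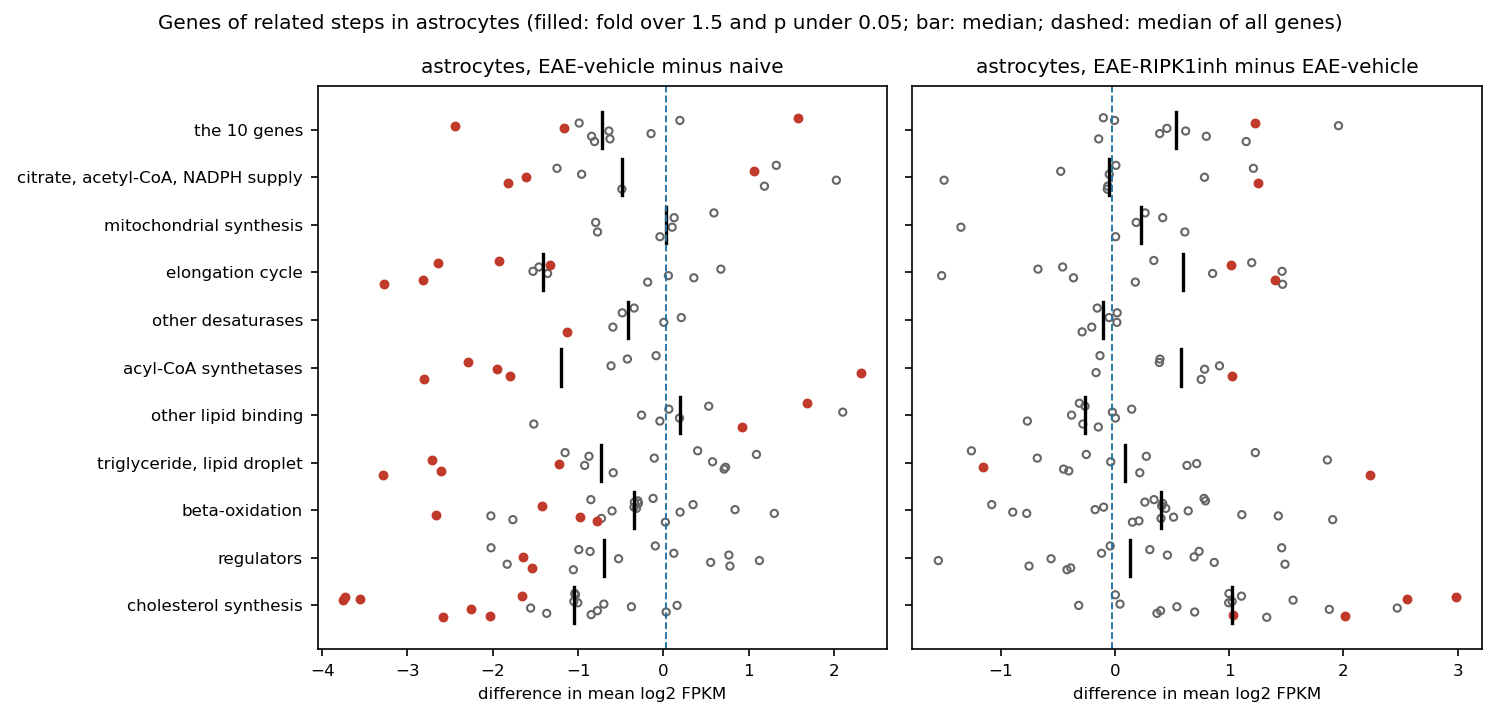
Difference in mean log2 FPKM in astrocytes of each gene of the 10 and of 10 related lists, for EAE-vehicle minus naive (left) and EAE-RIPK1inh minus EAE-vehicle (right), with filled points past a fold of 1.5 and an unadjusted p of 0.05, bars at list medians and a dashed line at the median of all genes. In EAE the medians of the elongation cycle (-1.41), the acyl-CoA synthetases (-1.20) and cholesterol synthesis (-1.05) lie left of the dashed line at 0.03. The astrocyte markers, not drawn here, also had a lower median in EAE, and their part was not tested.

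The genes with the pattern most like that of 4 of the 10 were found over the 6 group means, each centred on its own mean, among 10780 genes. The measure of likeness was the root mean square difference on the log2 scale. For Fasn they were Gpt2 (0.16), Cyfip2 (0.23) and Cdc42bpa (0.27), and for Scd2 Ntm (0.22), Timp4 (0.24) and Pfn2 (0.25). For Fabp5 they were Tuba4a (0.29), Svip (0.32) and Cox7a1 (0.37). For Fabp7 they were Bcas1 (0.25), S100a16 (0.28) and Nnat (0.29). Bcas1 is known from myelinating oligodendrocytes, and it averaged 7.76 in naive, 9.34 in EAE-vehicle and 8.51 in EAE-RIPK1inh astrocytes. In the same groups S100a16 averaged 7.93, 9.17 and 9.0, and Nnat 7.47, 8.25 and 8.82. The gap between the cell types enters the measure of likeness along with the treatments.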

How the data were processed

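RNA of 30 sorted libraries was amplified from oligo(dT)-primed cDNA and sequenced. The authors aligned, quantified and normalized the reads in OmicSoft Array Studio and deposited log2 FPKM values, which are quantile-normalized (the sorted values of all 30 libraries are identical, from 0 to 15.34). The aligner, the annotation release and the offset before the logarithm are not given in the sources used here. Gene positions equal those of GENCODE M21 on GRCm38 for 99.9% of genes. Genes without signal hold low values that rise in order, by which they were recognised. These values reach 2.74 in EAE-vehicle astrocyte library 1, 1.74 in naive microglia library 4 and 1.69 in naive astrocyte library 2. They were set to tie when overlap was judged and were kept as deposited in the main fits, the permutation tests and the means. Depth is unknown, so counting errors were not computed, and the number of libraries limits the precision.

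Groups were compared with limma 3.58.1 in R 4.3.3 (lmFit, eBayes with a trend) over 28958 varying genes in microglia, 30718 in astrocytes and 30952 in the fit of all libraries, with Benjamini-Hochberg adjustment over all genes. The call (fold over 1.5, unadjusted p under 0.05) is the study's cutoff. The study's methods name a paired test; the labels pair no mice, so fits are unpaired, and p-values measure the spread between libraries labelled as replicates. Exact permutation tests of the difference in means were two-sided. The fits were tested on simulated data, drawn as independent normal values around the mean of each gene. These held no floor, no low-signal libraries and no shared mice, so the effect of such features was not tested. The 10 genes and all lists were chosen with earlier results of these data known. Named list genes were those with an adjusted p under 0.05 for EAE, and, in each list and cell type, at most 2 of the smallest p for EAE and 2 for the inhibitor among genes averaging 1 or more. Hsd17b8, Fabp1, Fabp2, Fabp6, Fabp9, Fabp12 and Crabp2 were not analysed here. Alternatives were a filter on low values, a pseudocount of 1, libraries centred on their medians, values without signal set to 0, no variance trend, quality weights, fits of the compared groups alone, a replicate block, and leaving out libraries. Promoter sequences are from RefSeq.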

Additional observations from a re-analysis of the deposited data

Results flagged for a closer look

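In 60 sets of 1 gene in 1 group, 5 held a library that stood apart from the rest by Dixon's test, where chance gives about 5% of sets. Fads1 in EAE-vehicle astrocyte library 1 was at 0.06, without signal, against 6.63 in the nearest library. Fasn in EAE-vehicle astrocyte library 2 was at 1.53 against 4.49, in a library with 22109 genes with signal. Scd1 in naive astrocyte library 2 was at 6.72 against 7.55. Fabp7 in naive astrocyte library 4 was the lowest at 7.12 against 7.98. Scd1 in naive microglia library 3 was at 0.68 and without signal in the other 3 libraries.

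The effect of the inhibitor on Fads2 differed between astrocytes and microglia by 1.26 on the log2 scale (SE 0.59, adjusted p = 0.948, limma interaction).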

How the results depend on the processing

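No value of the 10 genes that passed the test changed its sign under any alternative run. EAE in astrocytes, with 3 calls, gave 2 without a variance trend and 2 with only the groups compared, where Fads1 was lost, and 4 with the filter on low values and 4 with centred libraries, where Fads2 was gained. Counts that moved by more than 1.5 times were as follows. With genes averaging at least 1 alone, the inhibitor in astrocytes gave 2 (Fads1 and Fads2), the EAE interaction 1 and the inhibitor interaction 0. With quality weights, EAE in astrocytes gave 5, the inhibitor group against naive astrocytes 2, the EAE interaction 1 and the inhibitor interaction 0. A pseudocount of 1 gave 1 for the EAE interaction, and centred libraries gave 0 for the inhibitor interaction. With only the groups compared, the inhibitor group against naive microglia gave 1 (Fabp5). Without the 3 libraries under 9000 genes the counts were 6 for EAE in astrocytes, 2 for the inhibitor, 2 for the inhibitor group against naive astrocytes, 1 for the inhibitor group against naive microglia (Fabp5), 3 for the EAE interaction and 0 for the inhibitor interaction. The share of all genes called under each alternative is not given here, and the cause was not tested.

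Libraries of the same replicate number were compared by their deviations from the group means. Across treatments, 0 of 13 pairs in astrocytes and 4 of 13 in microglia correlated over 0.1, at most at 0.241. Between the cell types, 0 of 4 naive, 1 of 6 EAE-vehicle and 0 of 5 EAE-RIPK1inh pairs did. The labels do not say which libraries share a mouse, so pairing by mouse was not tested. With the replicate block the EAE interaction gave 1 call (Fads1, -2.41) and the inhibitor interaction 0, and other counts stayed within 1.5 times.

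Leaving out 1 library at a time gave 2 to 7 calls for EAE in astrocytes, 1 to 1 for the inhibitor and 1 to 2 against naive, 0 to 2, 0 to 0 and 0 to 1 in microglia, 9 to 9, 7 to 9 and 8 to 9 between cell types in naive, EAE-vehicle and EAE-RIPK1inh mice, and 0 to 3 and 0 to 1 for the interactions with EAE and the inhibitor. The depth of the libraries is unknown, and for Scd1, Fads2 and Fabp7 in microglia, with values near 0, a change was not detectable unless it was large.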
